A study of Homo sapiens with 4 samples.

Results

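Immediate early response (IER) genes and the SRF transcription factor with its cofactors form a set of 10 genes: IER2, IER3, IER5, IER5L, SRF, ELK1, ELK3, ELK4, MKL1 and MKL2. They were picked by symbol from the 16376 genes of the deposited table, in which all 10 were found, each with a mean of at least 50 normalized reads. Gene expression was measured by RNA-seq of poly(A)-selected RNA in the human colon cancer line HCT116, in 2 H2O2 samples treated with hydrogen peroxide and 2 untreated Control samples. Neither dose nor exposure time is in the labels, which also do not state that a group's samples were separate cultures, so the p-values reflect the spread of these samples alone, and that spread may be technical. The table holds group means A and B of normalized counts with the authors' DESeq test; the table's name puts Control before H2O2, so A was read as Control, and every direction rests on this reading.

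Immediate early genes are switched on within minutes by growth factors and stress, without new protein synthesis. SRF binds a DNA element called the CArG box in the promoters of many such genes and of actin cytoskeleton genes. It acts there with either of 2 kinds of cofactor, the ternary complex factors ELK1, ELK3 and ELK4, which bind ETS motifs beside SRF and are activated by MAP kinases, or MKL1 and MKL2 (also called MRTFA and MRTFB), which are held by free actin and enter the nucleus as actin polymerises. IER2, IER5 and IER5L are related proteins, while IER3 is a separate stress and survival protein that shares only the prefix.

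The promoters of SRF, IER2, IER5 and ELK4 are shown because they held a match to a motif of SRF or its ETS cofactors, and that of IER5L because it held none although it is a relative of IER2 and IER5. Each is a RefSeq window of GRCh38.p14 from 250 bases before to 50 bases after the annotated start, read 5′ to 3′ on the gene's strand, with motif matches in capitals. Both strands were searched for CCGGAA, the ETS core that ternary complex factors favour, and for the CArG box, and no match of one motif overlapped one of the other. SRF lies at chr6:43171019-43171318 (plus strand), IER2 at chr19:13150161-13150460 (plus strand), IER5 at chr1:181088450-181088749 (plus strand), ELK4 at chr1:205631962-205632261 (minus strand) and IER5L at chr9:129178212-129178511 (minus strand).
SRF: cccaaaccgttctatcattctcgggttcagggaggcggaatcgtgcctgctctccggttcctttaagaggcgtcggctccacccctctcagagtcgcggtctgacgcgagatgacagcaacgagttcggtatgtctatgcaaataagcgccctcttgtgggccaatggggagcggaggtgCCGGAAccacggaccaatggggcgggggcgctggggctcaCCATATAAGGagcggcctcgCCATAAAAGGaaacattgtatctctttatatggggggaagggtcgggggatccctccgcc
IER2: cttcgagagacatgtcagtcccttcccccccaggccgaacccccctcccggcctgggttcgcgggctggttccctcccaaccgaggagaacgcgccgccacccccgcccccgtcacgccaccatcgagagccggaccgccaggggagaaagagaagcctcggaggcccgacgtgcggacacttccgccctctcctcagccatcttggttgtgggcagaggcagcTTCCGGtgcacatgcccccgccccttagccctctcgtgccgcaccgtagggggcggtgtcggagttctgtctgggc
IER5: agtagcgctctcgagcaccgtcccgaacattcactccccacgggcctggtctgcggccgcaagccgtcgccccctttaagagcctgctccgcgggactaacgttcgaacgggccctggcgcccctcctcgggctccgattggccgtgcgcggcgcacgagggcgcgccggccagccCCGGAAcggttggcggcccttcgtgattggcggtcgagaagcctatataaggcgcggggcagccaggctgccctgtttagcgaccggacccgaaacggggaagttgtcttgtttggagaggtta
ELK4: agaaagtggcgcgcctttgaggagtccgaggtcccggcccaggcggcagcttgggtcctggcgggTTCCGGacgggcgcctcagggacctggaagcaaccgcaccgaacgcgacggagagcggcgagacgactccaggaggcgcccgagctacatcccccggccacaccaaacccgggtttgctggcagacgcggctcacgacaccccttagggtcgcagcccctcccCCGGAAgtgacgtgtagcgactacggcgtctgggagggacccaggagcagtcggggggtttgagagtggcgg
IER5L: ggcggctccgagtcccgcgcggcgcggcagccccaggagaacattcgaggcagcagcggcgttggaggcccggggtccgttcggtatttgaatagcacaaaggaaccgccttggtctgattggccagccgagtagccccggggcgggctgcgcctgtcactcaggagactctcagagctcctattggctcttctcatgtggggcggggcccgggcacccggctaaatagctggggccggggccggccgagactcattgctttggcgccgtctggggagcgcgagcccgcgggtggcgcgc

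SRF has 2 RefSeq windows, of which the one shown held 2 CArG boxes, beginning 30 and 10 bases before the start, and 1 CCGGAA 70 bases before it, and the other held neither motif. IER2 held 1 ETS core 26 bases before the start, on the opposite strand (TTCCGG as printed), and IER5 held 1 at 74 bases before it. ELK4 held 2 matches to the ETS core, 185 bases before the start on the opposite strand and 22 bases before it. The IER5L window held neither motif. Of 35116 RefSeq promoter windows, 1.29% held a CArG box, 17.2% held CCGGAA and 0.191% held both. The windows of ELK1, ELK3, MKL1 and MKL2 had no match to either motif. The window of IER3 was not used here. A match describes letters and does not show that a factor binds.

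In the authors' deposited table IER2 was 1.54-fold and IER5 1.58-fold higher with H2O2, whereas IER3 and IER5L missed the threshold. Of the 10 genes, 2 were called higher, 1 (MKL2) lower and 7 neither at an adjusted p under 0.05 in the authors' deposited table, where 7.19% of all listed genes were called. limma, a linear model of log2(normalized count + 1) in the 4 libraries whose whole counts were solved from the group means, called IER2 and IER5 higher and no other member, against 4.10% of all genes called and 1.52% called higher. The table carries no replicate numbers, so the libraries of a group are named the deeper and the shallower by total count. In bulk RNA, fewer cells of a type and less RNA per cell cannot be told apart.

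IER5, which encodes a nuclear regulator that activates heat shock factor HSF1, had 1407 and 1396 normalized reads in the deeper and shallower H2O2 libraries, against 843 and 931 in the deeper and shallower Control libraries. The groups did not overlap, and the H2O2 libraries lay close together. IER5 was 1.58-fold higher with H2O2 in the authors' deposited table (adjusted p = 3.23e-05). In limma it was 0.66 ± 0.11 higher on the log2 scale (SE, n = 2 and 2 libraries, adjusted p = 0.00354), and it passed in all 4 fits with 1 library left out, at 0.59 to 0.73 and adjusted p of at most 0.0434.

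IER2, a nuclear protein of the same family, had 3826 and 3631 normalized reads in the H2O2 libraries, against 2137 and 2699 in the Control libraries. Both H2O2 values lay above both Control values, with the shallower Control library the higher of its pair. IER2 was 1.54-fold higher in the authors' deposited table (adjusted p = 1.56e-04). It was 0.63 ± 0.12 higher on the log2 scale in limma (SE, adjusted p = 0.00905), and the call was lost when the deeper H2O2 library was left out (0.60, adjusted p = 0.125). The log2 difference ranged from 0.47 without the deeper Control library to 0.80 without the shallower. GENCODE release 29 annotates an antisense gene, AC011446.2, that overlaps IER2, and 28% of the 75-base words of the longest IER2 transcript occur on the opposite strand of other genes' transcripts. Whether the authors' counting used strand is not given in the sources used here, so reads of IER2 and of an antisense partner may not be separated.

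IER3, also called IEX-1, had the most reads of the set. It had 9069 and 7236 normalized reads in the H2O2 libraries, against 5863 and 7653 in the Control libraries. The groups overlapped, because the shallower Control library exceeded the shallower H2O2 library. IER3 had a fold of 1.21 in the authors' deposited table (adjusted p = 0.30). Its log2 difference in limma was 0.27 with a 95% interval from -0.040 to 0.59 (adjusted p = 0.311). Without the shallower Control library it was 0.47. In this and all fits without a Control library, the spread comes from H2O2 pairs alone and leaves out that between Controls. That spread is also moderated toward the pairs of other genes, so it is not the gene's own alone. An antisense gene, IER3-AS1, overlaps IER3, and 22.5% of the words of IER3 occur on the opposite strand of other genes' transcripts.

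IER5L, the closest relative of IER5, had 866 and 702 normalized reads in the H2O2 libraries, against 764 and 853 in the Control libraries. The Control values fell inside the H2O2 range. Its fold was 0.970 in the authors' deposited table (adjusted p = 0.937), and the log2 difference in limma was -0.050 with a 95% interval from -0.32 to 0.22. IER5L also has 2 antisense partners, with 29.4% of its words on the opposite strand of other genes' transcripts. Within a library, IER5 had 1.63 and 1.99 reads per IER5L read with H2O2, against 1.10 and 1.09 in Control, so the balance between these relatives was higher in both H2O2 libraries; this ratio was not tested.

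**Figure D1:**
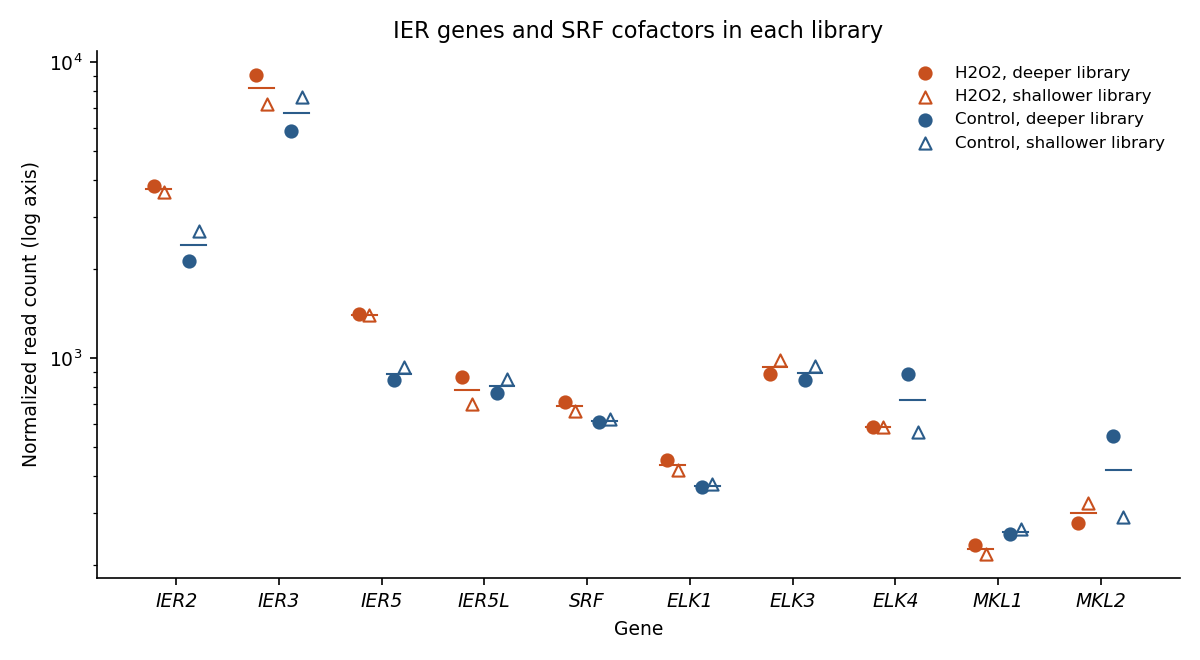
Normalized read count (log axis) of each gene in the 4 libraries, H2O2 to the left of Control, with circles for the deeper and triangles for the shallower library of a group and a line at each group mean. IER2 (3826 and 3631 with H2O2 against 2137 and 2699 in Control) and IER5 (1407 and 1396 with H2O2 against 843 and 931 in Control) stand apart by group, while ELK4 and MKL2 are high in the deeper Control library alone.

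Of the 4 DNA-binding drivers, SRF and the ternary complex factors, none was called by DESeq in the authors' deposited table or by limma with 4 libraries. Without adjustment, ELK4 alone had a p under 0.05 in the authors' deposited table, and limma gave none of the 4. SRF itself had 712 and 664 normalized reads in the H2O2 libraries, against 607 and 624 in the Control libraries. The groups did not overlap, but the difference did not pass, at a log2 difference of 0.16 with a 95% interval from -0.078 to 0.40 (limma, adjusted p = 0.438). The authors' deposited table gave SRF a fold of 1.12 (adjusted p = 0.542). Of the 10 genes, 5 had groups that did not overlap, against 51.9% of all genes, so separation of the groups alone is no result here.

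ELK1, the ternary complex factor best known as an ERK target, had 452 and 418 normalized reads with H2O2, against 367 and 376 in Control. It did not overlap between groups but missed the threshold, at a fold of 1.17 in the authors' deposited table (adjusted p = 0.390) and a log2 difference of 0.23 with a 95% interval from -0.031 to 0.48 in limma (adjusted p = 0.307). ELK3, also called NET, which can repress SRF targets until it is phosphorylated, had 881 and 987 normalized reads with H2O2, against 844 and 941 in Control. The ELK3 groups overlapped, and the log2 difference was 0.065 with a 95% interval from -0.18 to 0.31 in limma (adjusted p = 0.787). For SRF, ELK1 and ELK3 the upper end of the interval was below the value of IER5, but a difference between genes was not tested.

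ELK4, also called SAP-1, had 588 and 586 normalized reads with H2O2, against 883 and 561 in Control. The 2 H2O2 libraries and the shallower Control library were alike, and the deeper Control library stood alone above them. ELK4 had a fold of 0.812 in the authors' deposited table (p = 0.0218, adjusted p = 0.157 from a test across all genes). In limma the log2 difference was -0.26 with a 95% interval from -0.61 to 0.084 (adjusted p = 0.380). It was 0.063 without the deeper Control library and -0.59 without the shallower.

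MKL2 was the 1 gene of the set called lower in the authors' deposited table, at 71.7% of its Control mean (adjusted p = 0.0169), against 4.62% of all genes called lower. It had 278 and 323 normalized reads in the H2O2 libraries, against 547 and 292 in the Control libraries. The groups overlapped: the shallower Control library lay between the H2O2 libraries, and the deeper Control library stood well above all the others. limma gave a log2 difference of -0.41 ± 0.21 (SE, adjusted p = 0.287). Without the deeper Control library the value was 0.041, and without the shallower it was -0.87. The direction of the MKL2 difference thus rested on 1 library.

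MKL1, its close relative, had 234 and 218 normalized reads with H2O2, against 255 and 265 in Control. The groups did not overlap, and MKL1 was called neither in the authors' deposited table, with a fold of 0.870 (adjusted p = 0.534), nor in limma, with a log2 difference of -0.20 and a 95% interval from -0.49 to 0.088 (adjusted p = 0.421). Leaving out a library kept the MKL1 value between -0.25 and -0.15. MKL1 overlaps SGSM3 and ELK4 overlaps MFSD4A on the opposite strand in GENCODE release 29, and 0% of the 75-base words of the longest MKL1 or ELK4 transcript occur on the opposite strand of other genes' transcripts. Within a library there were 1.19 and 1.48 MKL2 reads per MKL1 read with H2O2, against 2.15 and 1.10 in Control.

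**Figure D2:**
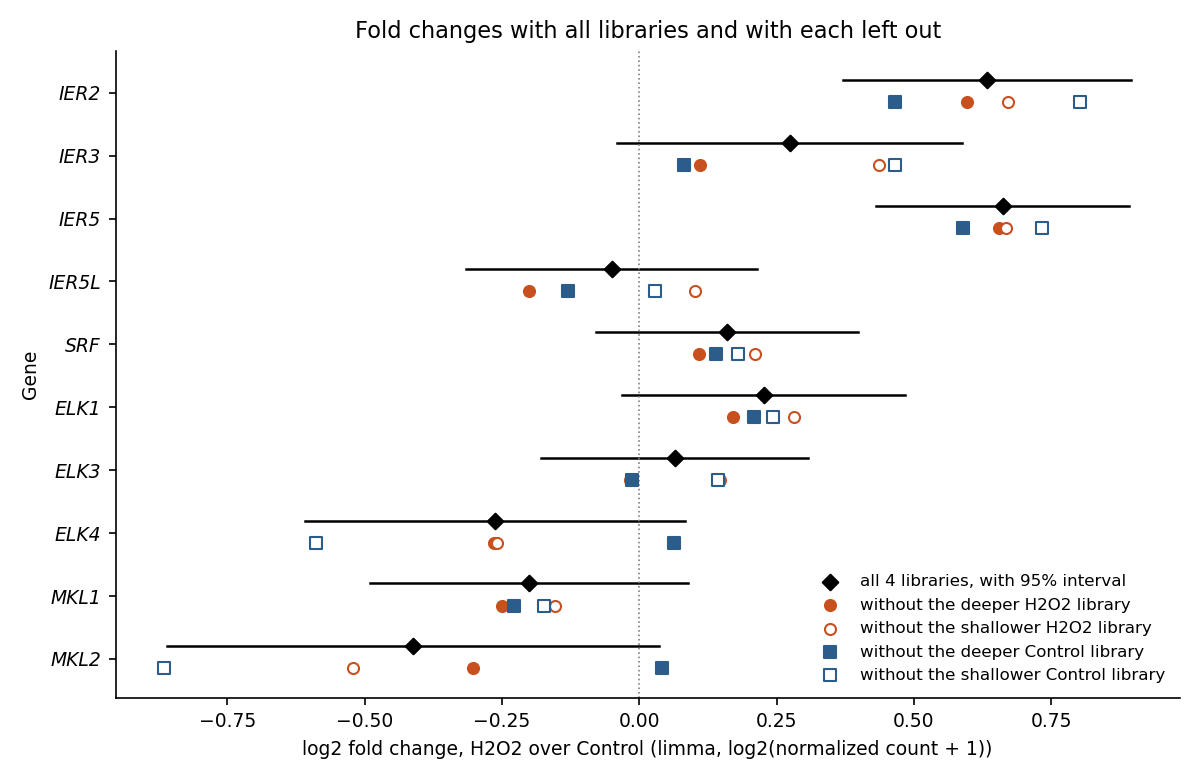
log2 fold change of H2O2 over Control from limma, with a diamond and its 95% interval for all 4 libraries and, below it, the value without each library (circles for H2O2, squares for Control). IER5 stays between 0.59 and 0.73, while MKL2 runs from -0.87 to 0.041 and ELK4 from -0.59 to 0.063 with the choice of Control library.

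The H2O2 libraries differed less from each other than the Control libraries did, with a chi-square per degree of freedom over genes of 2.38 for the H2O2 pair and 7.13 for the Control pair. Between the groups it was 12.9 and 11.7 for the deeper and shallower H2O2 library against the deeper Control library, and 6.72 and 5.98 against the shallower Control library. The shallower Control library was thus closer to both H2O2 libraries than to the deeper Control library. The difference within the Control pair moved with exonic length. By exonic length in GENCODE release 29, which matched 85.2% of listed genes by symbol, the median log2 ratio of the deeper over the shallower Control library was -0.16 in the shortest of 5 equal bins of genes (mean at least 50) and 0.16 in the longest. The same ratio between the H2O2 libraries was 0.019 in the shortest and -0.051 in the longest bin. ELK4 and MKL2, with 12142 and 16578 exonic bases, fell in the longest bin and had Control ratios of 0.65 and 0.91, both above the upper quartile of that bin, which was 0.34. IER3 and IER2, with 1356 and 3072 bases, had Control ratios of -0.38 and -0.34. IER5, with 4188 bases, had one of -0.14, and SRF, with 4202 bases, one of -0.041. In the authors' deposited table the median log2 fold change of H2O2 over Control was 0.15 in the shortest bin and -0.18 in the longest. The part of length in the results for single genes was not tested.

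**Figure D3:**
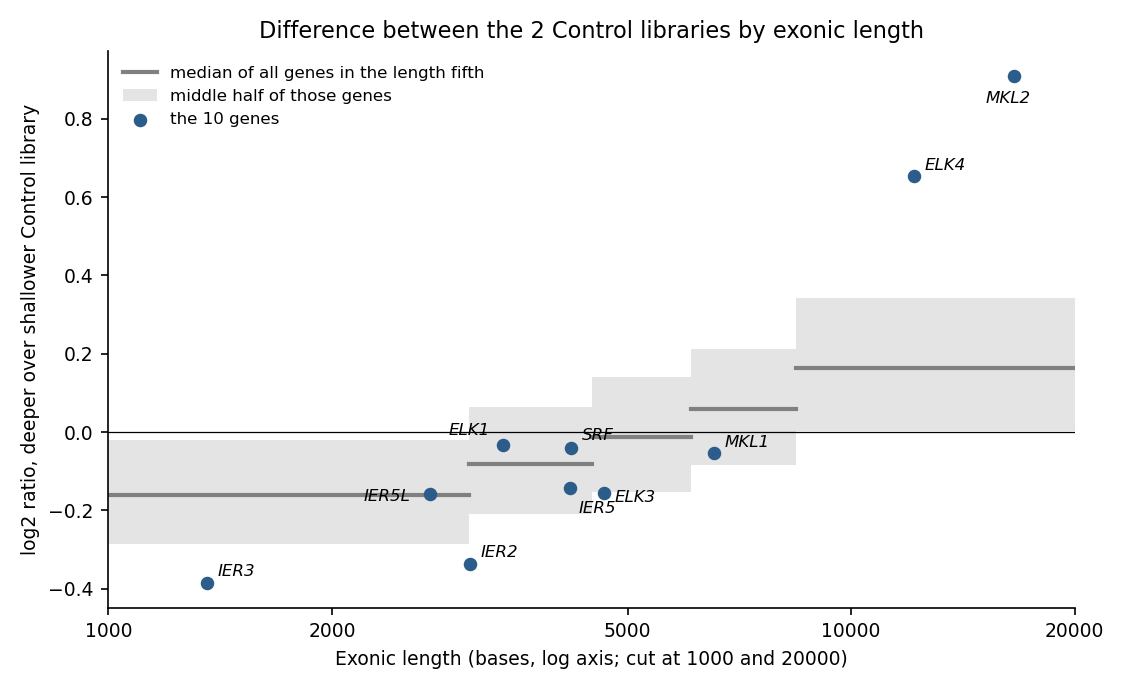
log2 ratio of the deeper over the shallower Control library against exonic length in bases (log axis). Grey lines are medians and grey bands the interquartile range of all genes in each of 5 bins of length. Points are the 10 genes, with MKL2 at 0.91 and ELK4 at 0.65 above their bin's band and IER3 at -0.38 and IER2 at -0.34 low.

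Levels between genes were compared as normalized reads per kilobase of exon. IER3 was the highest at 6012 ± 956 with H2O2 and 4984 ± 933 in Control (SD, n = 2 each, as for all levels here), followed by IER2 at 1214 ± 44.9 with H2O2 and 787 ± 129 in Control. IER5 stood at 335 ± 1.94 with H2O2 and 212 ± 14.9 in Control, and IER5L at 289 ± 42.7 with H2O2 and 298 ± 23.2 in Control. The order of these relatives turned per kilobase: both IER5 values (336 and 333 per kilobase) were above both IER5L values (319 and 259) with H2O2, while both (201 and 222) were below both IER5L values (282 and 315) in Control. In reads, IER5 was above IER5L in all 4 libraries, so the turn in order depends on the exonic lengths used. The drivers were lower per kilobase than the IER genes with H2O2. ELK3 stood at 201 ± 16.1 with H2O2 and 192 ± 14.7 in Control, SRF at 164 ± 8.21 with H2O2 and 146 ± 2.92 in Control, and ELK1 at 128 ± 6.99 with H2O2 and 109 ± 1.79 in Control. In Control, IER5 and ELK3 were neighbours whose values overlapped. Within each Control library IER5 was above ELK3, at 201 against 182 in the deeper and 222 against 203 in the shallower. This difference was not tested. ELK4, MKL1 and MKL2 were the lowest. ELK4 stood at 48.3 ± 0.131 with H2O2 and 59.5 ± 18.7 in Control, MKL1 at 34.6 ± 1.64 with H2O2 and 39.8 ± 1.07 in Control, and MKL2 at 18.1 ± 1.94 with H2O2 and 25.3 ± 10.9 in Control. The exonic length is the union over annotated transcripts and can exceed what these cells transcribe, so levels of genes with many annotated exons may read low.

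Reads of the IER genes per SRF read were set against each other within a library, where no scaling between libraries enters. There were 5.37 and 5.47 IER2 reads per SRF read with H2O2, against 3.52 and 4.32 in Control. There were 1.98 and 2.10 IER5 reads per SRF read with H2O2, against 1.39 and 1.49 in Control. Both ratios were higher in both H2O2 libraries than in either Control library, but neither ratio was tested. In normalized reads, the groups did not overlap for 51.9% of all genes. For IER3 the ratios of 12.7 and 10.9 with H2O2 overlapped those of 9.66 and 12.3 in Control.

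Among 24 listed immediate early genes regarded as targets of SRF with a ternary complex factor, 16 were called higher, none lower and 8 neither in the authors' deposited table, against 2.58% of all genes called higher. This list was chosen with earlier results of these data known, so its share is not an independent test. The median log2 fold change of the list was 0.85, and that of all genes was 0.00029, in the authors' deposited table. limma called 14 of the 24 higher, and 13 to 20 when a library was left out. The list's median was already 0.34 lower on the log2 scale in the deeper than in the shallower Control library. The AP-1 subunit gene FOSB was 16.7-fold and FOS 5.07-fold higher in the authors' deposited table. The zinc finger factor genes EGR2 and EGR3 were 7.57-fold and 4.52-fold higher in the authors' deposited table. The MAP kinase phosphatase genes DUSP2 and DUSP1 were 4.26-fold and 3.92-fold higher, ATF3 3.34-fold and the nuclear receptor gene NR4A1 3.20-fold higher in the authors' deposited table. All 8 were called by limma with all libraries and with any 1 left out, and the folds of IER2 and IER5 lay below theirs. The other called genes of the list lay on both sides of IER2 and IER5 in the authors' deposited table. NR4A3, ARC, JUNB, CYR61 and KLF4 had folds there above both IER2 and IER5. NR4A2, DUSP5 and EGR1 had folds there of 1.52, 1.5 and 1.39, below both IER2 and IER5. EGR1, a classical SRF target, was called in the authors' deposited table (adjusted p = 0.00855). It had 4566 and 4394 normalized reads with H2O2, against 2537 and 3891 in Control. limma did not call EGR1 with 4 libraries (adjusted p = 0.0806), and its log2 difference was 0.20 without the deeper Control library and 0.82 without the shallower.

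Of 30 actin cytoskeleton genes regarded as targets of SRF with MKL1 or MKL2, 2 were called, both higher, in the authors' deposited table. The other 28 were called neither way. Of all genes there, 7.19% were called and 2.58% called higher. A positive log2 fold change was found there for 25 of the 30, and an unadjusted p under 0.05 for 9. In limma 1 of the 30 was called, higher. The median log2 fold change of the 30 was 0.14, and ranged from 0.052 to 0.29 when a library was left out in limma. The list's median was 0.18 lower in the deeper than in the shallower Control library. CTGF, a matrix-associated growth factor that is also a YAP target, was 1.58-fold higher in the authors' deposited table (adjusted p = 0.00192). In limma CTGF passed with all libraries (adjusted p = 0.0387) but not without the deeper H2O2 library (0.138) or the deeper Control library (0.0677). TGFB1I1, which encodes the focal adhesion protein HIC-5, was 1.70-fold higher in the authors' deposited table (adjusted p = 0.00483) but missed the threshold with limma (0.0544). ACTB, which encodes beta-actin, had 6898 and 7371 normalized reads with H2O2, against 4535 and 6757 in Control, and was called neither in the authors' deposited table (adjusted p = 0.15) nor by limma (0.203). The other control gene, GAPDH of glycolysis, had a fold of 1.09 in the authors' deposited table (adjusted p = 0.659). A CArG box was found in a promoter window of 9 of the 27 genes of this list that had one (33.3%), among them ACTG1, FLNA and TPM4, against 1.60% of all genes with a window. Of these 9 genes, TGFB1I1 was the 1 called in the authors' deposited table. In the immediate early list 2 of 18 genes with a window (11.1%) held a CArG box, EGR1 and EGR2, and both were higher in the authors' deposited table. There 16 of the 24 listed genes of that list were called higher. The windows reach 250 bases before the start, and CArG boxes further away were not searched for.

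**Figure D4:**
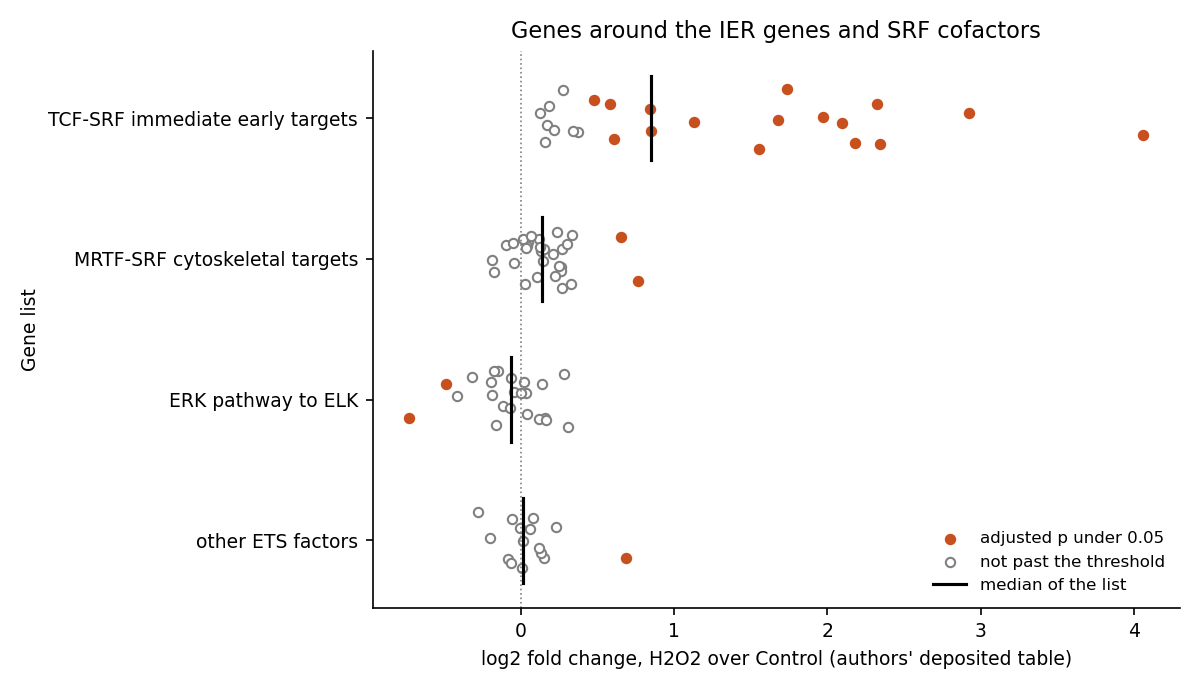
log2 fold change of H2O2 over Control in the authors' deposited table for each gene of 4 lists around the set, filled where the adjusted p is under 0.05, with a bar at each list's median. The immediate early targets reach from near 0 to 4.06 (FOSB) with a median of 0.85, and the medians of the other 3 lists lie between -0.061 and 0.14.

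Upstream of the ternary complex factors, 2 of 23 genes of the growth factor receptor, RAS and MAP kinase cascades were lower, none higher and 21 called neither way in the authors' deposited table (median log2 fold change -0.061). This is near the background, as 4.62% of all genes were called lower and 7.19% either way. MAP2K2, which encodes the ERK kinase MEK2, had 133 and 134 normalized reads with H2O2, against 200.3 and 241 in Control. In the authors' deposited table MAP2K2 was lower, at 60.6% of its Control mean (adjusted p = 0.00168). MAP2K2 passed in limma (adjusted p = 0.0183), at a log2 difference of -0.71. Its adjusted p was 0.0805 without the deeper and 0.0502 without the shallower H2O2 library, at nearly the same log2 differences of -0.71 and -0.72. BRAF, a kinase above MEK, was called lower in the authors' deposited table, at 71.4% of the Control mean (adjusted p = 0.0416), but missed the threshold with limma (0.0792).

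By distance over the 4 centred log2 profiles, the nearest genes with a mean of at least 50 were CREM (distance 0.041), ESAM (0.074) and CTC-250I14.6 (0.082) for IER2. For IER5 they were RP13-516M14.1 (0.058), MAFF (0.058) and ING1 (0.071). CTC-250I14.6, a transcript named after its clone, had 2322 and 2146 normalized reads with H2O2, against 1198 and 1574 in Control, and was 1.61-fold higher in the authors' deposited table. Whether it shares reads with IER2 was not tested. For MKL2 the nearest were DGKH (0.028), KMT2A (0.074) and RP11-13A1.1 (0.086). DGKH had 181 and 208 normalized reads with H2O2, against 357 and 186 in Control, and KMT2A had 821 and 935 with H2O2, against 1652 and 902 in Control. Like MKL2, these genes were high in the deeper Control library and alike in the other 3. All the nearest genes were picked for a profile close to that of a member, so such likeness follows from the choice. KMT2A is uncertain, as 21.2% of its words occur in transcripts of other genes.

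Of the epithelial markers, EPCAM, KRT8, KRT19 and CDH1 had the most reads, with KRT18 and VIL1 lower. KRT20 had only 10.6 and 6.24 normalized reads with H2O2, against 13.4 and 6.16 in Control. CDH17, CDX1 and LGALS4 were not listed. EPCAM had 2088 and 2084 normalized reads with H2O2, against 1697 and 1732 in Control, and none of the 7 listed of 10 epithelial markers was called in the authors' deposited table, with 2 at an unadjusted p under 0.05. Of 7 fibroblast markers 3 were listed, with COL1A1 lower in the authors' deposited table (adjusted p = 0.0211) and summed levels of 813 and 754 normalized reads with H2O2, against 1017 and 933 in Control. Of 7 leukocyte markers CD14 and CD68 were listed, with summed levels of 27.0 and 22.9 with H2O2, against 8.63 and 17.5 in Control, and CD14 was called higher in the authors' deposited table (adjusted p = 0.0270). limma called 1 of the 3 listed fibroblast markers, lower, and neither leukocyte marker. Of 4 endothelial markers KDR was listed, at 13.5 and 8.32 normalized reads with H2O2, against 6.71 and 6.16 in Control. The defining markers PTPRC, CD3E, PECAM1, VWF and DCN were not among the listed genes, and the part of the marker genes in the results was not tested.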

How the data were processed

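HCT116 RNA from 2 H2O2 and 2 Control samples was sequenced, and the submitters' processing notes list the build hg19 and, with no roles, DESeq, HTSeq, STAR, CASAVA 1.8, Trim Galore and FastQC. Not given in the sources used here are the annotation, the strand setting and the filters. The deposited table of 16376 genes holds a signal, the authors' group means of size-factor-normalized counts. Per the file headers, its ratio (fold) column divides mean B by mean A, with a log2 column beside it. Per the file headers, the p-value of the authors' DESeq test is given raw and with Benjamini-Hochberg adjustment. The lowest overall mean was 5.46, and genes below it are not analysed here.

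Each group mean was solved for 2 whole counts within 1e-09. Each of the 16376 genes had a single solution per group, and median-of-ratios size factors from these counts equalled the solved ones to 1.47e-14 or better. Total counts were 7365032 and 6858809 for H2O2, and 7309731 and 6892854 for Control. Recovery and limma were tested on simulated data. The limma simulation gave all genes and both groups the same count dispersion, so it does not cover the wider difference within the Control pair. On log2(normalized count + 1), limma was fitted with its trend option (version 3.58.1, R 4.3.3) and adjusted by Benjamini-Hochberg over all genes. Its fold changes are on that scale. Its SEs, intervals and p-values use variances moderated toward those of genes of similar level, so they are not a gene's own spread alone. With 1 library left out, the lone library is assumed to vary like the other group.

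The members and gene lists were chosen with earlier results of these data known. Named genes are the 10 members, up to 8 called genes per list by adjusted p, ACTB, GAPDH, FOS, EGR1 and the 3 nearest profiles of each called member; marker genes are named from their lists. Other list genes were named after their values were seen. Some results that the rule covers are not reported here. Of the 10 members, 9 matched RefSeq promoter windows. Alternatives were a stricter threshold, a mean of at least 50, log2 ratios with 10 added to both means or centred on the median, limma with pseudocounts of 0.5 and 4 or total-count scaling, and leaving out each library.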

Additional observations from a re-analysis of the deposited data

How the results depend on the processing

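The authors' test called 1178 of all genes. At an adjusted p under 0.01 it called 642, and limma called 671, or 663 and 679 with pseudocounts of 0.5 and 4 and 669 with total-count scaling. The cause of the lower limma counts was not tested. Leaving out each library in turn gave 284 (deeper H2O2), 512 (shallower H2O2), 1396 (deeper Control) and 3641 (shallower Control) calls among all genes, 1 to 5 among the 10 members and 15 to 57 among 117 pathway genes. With all 4 libraries limma called 2 members and 18 pathway genes, and the authors' test 3 and 22. Fold changes of members that turned with a library left out ranged from -0.20 to 0.10 for IER5L (0.029 without the shallower Control library), from -0.017 to 0.15 for ELK3 (-0.013 without the deeper Control library), from -0.59 to 0.063 for ELK4 and from -0.87 to 0.041 for MKL2 on the log2 scale. Of 100 repeats of a member's test under another setting, 84 kept direction and call, 8 lost the call, 2 gained one and 6 reversed. The repeats with the stricter threshold or a mean of at least 50 reused the authors' log2 fold change, so their direction could not turn. The stricter threshold could also add no call. A further 20 ratios, with 10 added to both means or centred on the median, carry no test. Their direction could not turn, because adding 10 to both means keeps the sign and the median used for centring was only -0.00072. The call of MKL2 was lost at an adjusted p under 0.01 and in limma with all 4 libraries under each pseudocount and scaling. No paired analysis was possible because the solved libraries carry no replicate number. Count models and TMM scaling were not run on the solved counts.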

Other observations

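Of 15 other ETS family factors, which share the DNA-binding domain of the ELK proteins, 1 was called, higher, in the authors' deposited table. Of all genes there, 7.19% were called and 2.58% called higher. The called factor was ELF3, an epithelial ETS factor, with 695 and 633 normalized reads with H2O2, against 379.6 and 445 in Control. It was 1.61-fold higher in the authors' deposited table (adjusted p = 6.02e-05) and 0.69 ± 0.12 higher on the log2 scale in limma (SE, adjusted p = 0.00602), but lost the call with the deeper H2O2 library left out (0.0775).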
